A study of Homo sapiens with 22 samples.

Results

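A set of 7 genes of vitamin D metabolism and of the calcium and phosphate hormones were followed in lung tumour xenografts treated with inhibitors of RAS signalling. They were CYP24A1, CYP27B1, VDR, RXRA, STC1, STC2 and PTHLH, taken by gene symbol from a count table of 58735 human genes, and 6 of the 7 had enough counts to be tested. All 22 tumours had been grown from H2110, an established human lung adenocarcinoma cell line, to about 300 mm³, and had then been dosed by mouth for 3 days. Groups of 4 tumours each received RMC-7977 at 10 mg/kg, RMC-4550 at 30 mg/kg, Trametinib at 0.3 mg/kg or Cobimetinib at 3 mg/kg, and 6 tumours received Vehicle. RMC-7977 binds the active form of RAS, RMC-4550 inhibits the phosphatase SHP2 upstream of RAS, and Trametinib and Cobimetinib inhibit the kinase MEK downstream of it. The labels give every tumour the genotype WT, and the series title concerns the small GTPase RIT1. The labels name 1 cell line, no host strain or species, and no source that would show whether each tumour came from a separate animal, so the p-values below measure the spread between these samples.

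Active vitamin D is made by the hydroxylase CYP27B1 and destroyed by the hydroxylase CYP24A1. It acts through the receptor VDR, which binds DNA as a pair with RXRA, and CYP24A1 is itself among the genes that the pair induces most strongly, so that the hormone limits its own level. In lung adenocarcinoma CYP24A1 is often raised above its level in normal lung. STC1 and STC2 encode the stanniocalcins, secreted glycoproteins first known in fish as hormones that lower calcium. In mammals they are made in many tissues and inhibit the protease PAPP-A. PTHLH encodes the parathyroid hormone-related protein, which tumours can secrete and which can raise blood calcium.

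The libraries held 7761987 to 17265754 counts assigned to genes. Levels are given as CPM, the count of a gene set against the total of its library, with libraries scaled by edgeR's TMM factors. A pair of libraries stood apart by having few genes at very low counts: 5.02% of detected genes had 1 or 2 counts in RMC-7977 replicate 3 and 1.99% in Trametinib replicate 4, against 13.4% to 22.9% in the others. A shortage of GC-rich transcripts varied by degree among the libraries and was greatest in RMC-4550 replicate 1 and Vehicle replicate 1. The epithelial keratin KRT7 averaged 1425 ± 273 CPM in RMC-7977 tumours and 1436 ± 92.7 CPM in Vehicle tumours (SD, n = 4 and 6). KRT8, a keratin of the same list, averaged 1181 ± 186 CPM in RMC-7977 tumours and 1718 ± 381 CPM in Vehicle tumours, with 3 of 4 RMC-7977 tumours below all Vehicle tumours (log2 fold change -0.54, edgeR adjusted p = 0.337), and all 4 RMC-4550 and all 4 Cobimetinib tumours were below them too. The lung lineage markers NKX2-1 (2.78 CPM), NAPSA (1.23 CPM) and SFTPB (3.31 CPM) were low on average in Vehicle tumours. The haemoglobin genes were at or near 0 in all groups. Whether reads of the host were removed is not given in the sources used here.

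CYP24A1 and STC1 were the members with much lower levels in RMC-7977 tumours. They had been chosen because this was known, so the comparison of RMC-7977 with Vehicle is given for all members as a description without a p-value. In that comparison edgeR placed 2 of the 6 tested members past an adjusted p of 0.05, both lower. Of all 17652 genes tested, 0.448% passed on the lower side and 0.748% in either direction. In 3 members, CYP24A1, STC1 and PTHLH, all 4 RMC-7977 tumours lay below all 6 Vehicle tumours, which held for 1.9% of all genes tested. The median log2 fold change of the 6 members was -1.10, against -0.01 for all genes tested. In these bulk samples fewer cells of one type and less RNA per cell cannot be told apart.

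**Figure D1:**
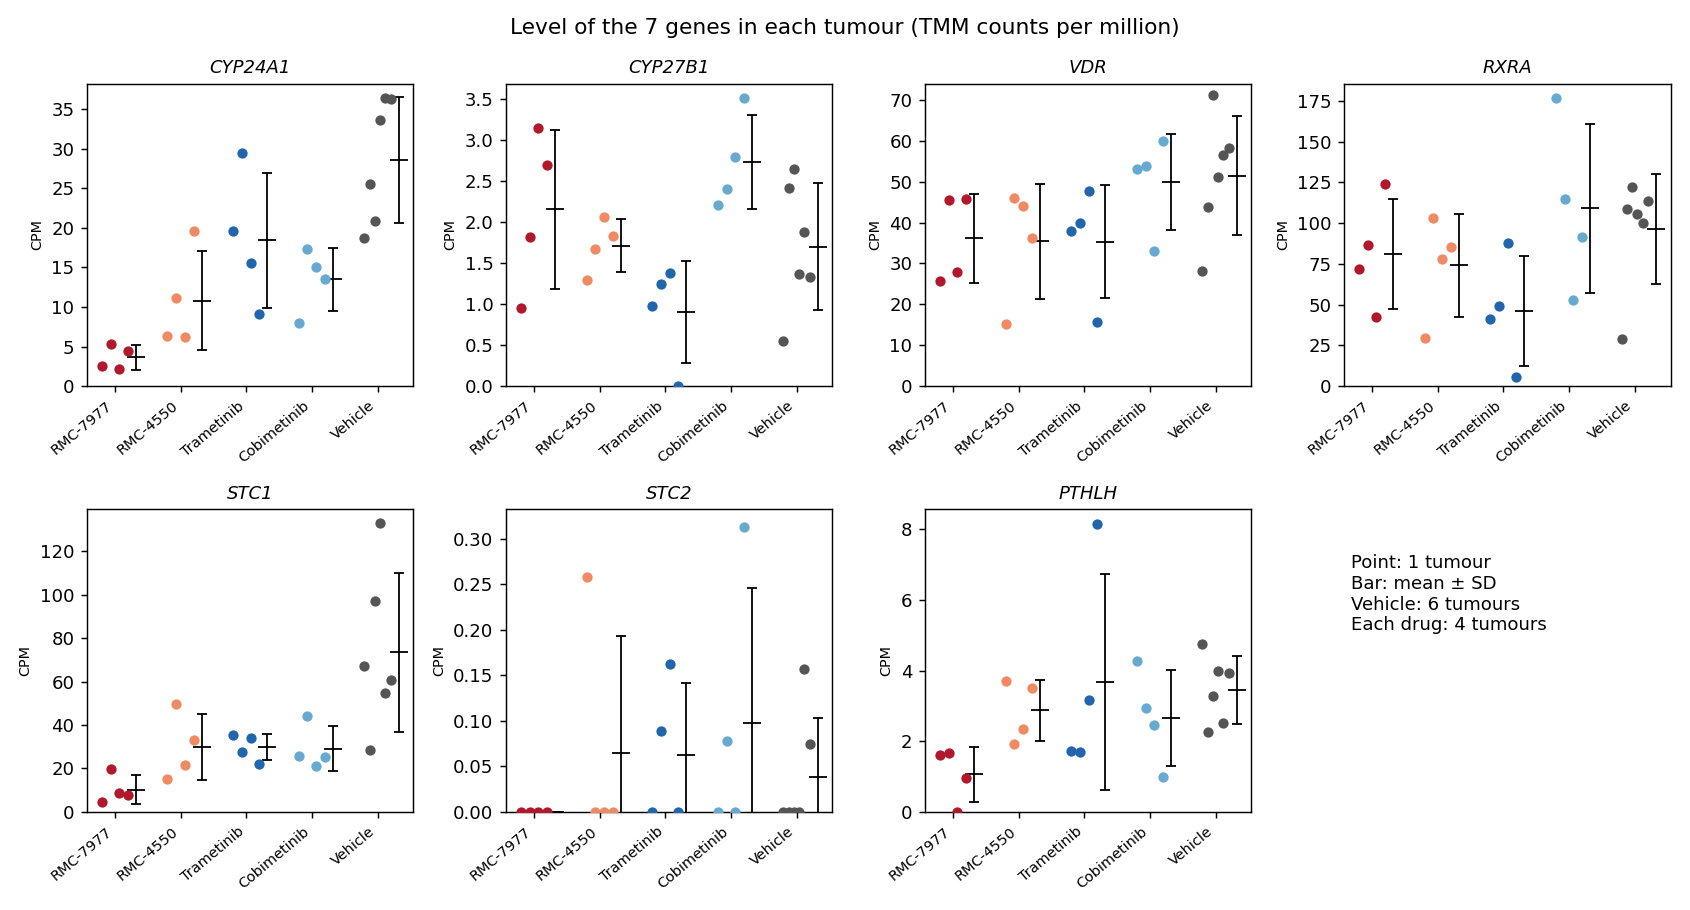
Level of each of the 7 genes in each tumour, in TMM-scaled CPM, by treatment. Each point is 1 tumour and the bar beside it is the mean ± SD (4 tumours per drug, 6 for Vehicle). The RMC-7977 points for CYP24A1 (2.13 to 5.39 CPM) and STC1 (4.48 to 19.9 CPM) lie below every Vehicle point, and STC2 stays under 0.32 CPM in every tumour.

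CYP24A1 (ENSG00000019186; hg38 chromosome 20, 54153449 to 54173973, minus strand) inactivates both the hormone and its circulating precursor. Its level was 2.57, 5.39, 2.13 and 4.43 CPM in the 4 RMC-7977 tumours. In RMC-4550 tumours it was 6.28, 11.2, 6.19 and 19.6 CPM. In Trametinib tumours it was 19.6, 29.5, 15.5 and 9.12 CPM, and in Cobimetinib tumours 8.02, 17.3, 15.1 and 13.5 CPM. In the 6 Vehicle tumours the lowest value was 18.7, the median 29.6 and the highest 36.4 CPM. All 4 RMC-7977 and all 4 Cobimetinib tumours were thus below every Vehicle tumour, as were 3 of 4 RMC-4550 tumours and 2 of 4 Trametinib tumours.

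The group means of CYP24A1 ordered as RMC-7977 (3.63 ± 1.54 CPM), RMC-4550 (10.8 ± 6.31 CPM), Cobimetinib (13.5 ± 3.97 CPM), Trametinib (18.4 ± 8.55 CPM) and Vehicle (28.6 ± 7.91 CPM; SD, n = 4 per drug and 6 for Vehicle). The mean was 12.7% of the Vehicle mean under RMC-7977, 37.9% under RMC-4550, 47.2% under Cobimetinib and 64.5% under Trametinib. The ranges of neighbouring groups overlapped except between RMC-7977 and RMC-4550, where every RMC-7977 tumour was below every RMC-4550 tumour. With Vehicle as baseline the log2 fold change was -2.97 ± 0.40 (SE) for RMC-7977, a 7.83-fold lower level, with a 95% interval of -3.81 to -2.13.

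Against the same 6 Vehicle tumours, CYP24A1 did not pass the threshold for the other drugs. The log2 fold change was -1.40 ± 0.37 for RMC-4550, with an unadjusted p of 0.000948 and an edgeR adjusted p of 0.492. For Cobimetinib it was -1.09 ± 0.36, with an unadjusted p of 0.00654 and an edgeR adjusted p of 1.00. For Trametinib it was -0.63 ± 0.36, with an edgeR adjusted p of 0.334 and an interval of -1.36 to 0.11. The lower level under RMC-4550 and under Cobimetinib was larger than its standard error but did not survive adjustment over all genes. The shared Vehicle tumours mean that these estimates are not independent of each other, nor of the choice of CYP24A1.

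Compared drug against drug, CYP24A1 was lower under RMC-7977 than under Trametinib (log2 fold change -2.34, interval -3.20 to -1.48) and than under Cobimetinib (-1.88, interval -2.73 to -1.04). It was the 1 member past the threshold in each of these comparisons. Of all genes 0.283% were called lower and 0.408% in either direction against Trametinib, and 0.085% and 0.278% against Cobimetinib. Both comparisons rest on the RMC-7977 tumours by which CYP24A1 was chosen, so they are descriptions too. Leaving out any 1 RMC-7977 tumour ended either call, and the call against Cobimetinib was kept in 7 of the 22 fits that each left out 1 tumour. Against RMC-4550 the log2 fold change of CYP24A1 was -1.57 (interval -2.41 to -0.73). There edgeR called 0 members and 0.0906% of all genes, DESeq2 called 2 members, and 3 members were lower at an unadjusted p under 0.05, where 4.34% of all genes were. The log2 fold change of CYP24A1 in Trametinib over Cobimetinib tumours, whose drugs inhibit the same kinase at different doses, was 0.46 (interval -0.34 to 1.26; edgeR adjusted p = 0.541).

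CYP27B1 (ENSG00000111012; chromosome 12, 57762334 to 57768986, minus strand), the enzyme that makes the active hormone, was measured near the lower limit of the data. It had 0 to 56 counts per tumour and averaged 2.15 ± 0.97 CPM with RMC-7977, 1.71 ± 0.32 with RMC-4550, 0.90 ± 0.62 with Trametinib, 2.73 ± 0.57 with Cobimetinib and 1.70 ± 0.78 with Vehicle. Against Vehicle the log2 fold changes were 0.35, 0.01, -0.84 and 0.68 in that order of drugs, and none passed. All 4 Trametinib tumours and all 4 RMC-4550 tumours were below all 4 Cobimetinib tumours. The log2 fold change of Trametinib over Cobimetinib was -1.52 ± 0.56, with an edgeR adjusted p of 0.207. The count of 0 was in Trametinib replicate 4, a library short of low counts, and the other Trametinib tumours had 0.98 to 1.38 CPM. With any 1 tumour left out the log2 fold change was -1.79 to -1.22. The part of library quality in this difference was not tested. CYP27B1 shares 516 bases with METTL1 on the same strand, which had 94.2 counts per tumour on average, so reads from the shared stretch cannot be assigned with certainty.

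**Figure D2:**
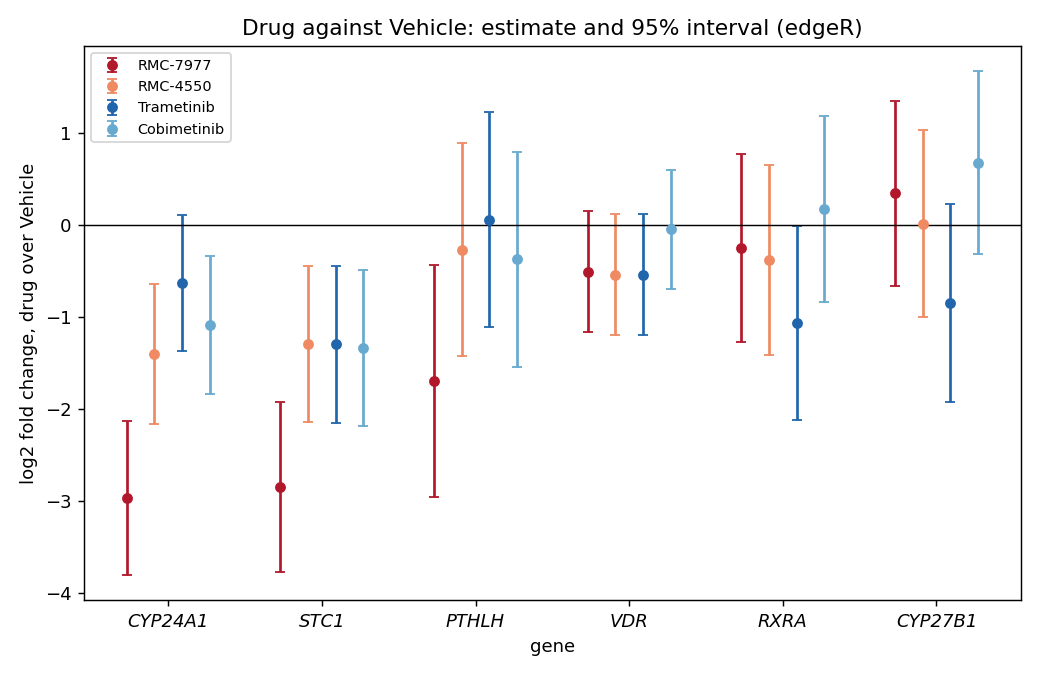
Log2 fold change of each drug over Vehicle for the 6 tested genes, with 95% intervals from edgeR. The RMC-7977 estimates for CYP24A1 (-2.97) and STC1 (-2.85) lie lowest, and the estimates of the other 3 drugs for STC1 lie together near -1.3. Those for VDR, RXRA and CYP27B1 lie between -1.06 (RXRA under Trametinib) and 0.68 (CYP27B1 under Cobimetinib). Their intervals are wide and include 0, except that of RXRA under Trametinib (-2.12 to -0.0045).

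VDR (ENSG00000111424; chromosome 12, 47841537 to 47943048, minus strand), the vitamin D receptor, was present in all tumours. It averaged 36.2 ± 10.9 CPM with RMC-7977, 35.4 ± 14.1 with RMC-4550, 35.3 ± 13.8 with Trametinib, 49.9 ± 11.7 with Cobimetinib and 51.5 ± 14.5 with Vehicle. The groups overlapped in every comparison with Vehicle, with 2 of 4 RMC-7977 tumours below the lowest Vehicle tumour. The log2 fold changes over Vehicle were -0.51, -0.54, -0.54 and -0.04. Of the 3 drugs that can be tested here, RMC-4550 had an edgeR adjusted p of 0.986 (interval -1.20 to 0.12), Trametinib 0.352 (-1.20 to 0.12) and Cobimetinib 1.00 (-0.69 to 0.60). An opposite-strand noncoding gene, AC121338.2, overlaps VDR by 1744 bases and had 17.0 counts per tumour on average.

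RXRA (ENSG00000186350; chromosome 9, 134317098 to 134440585, plus strand), the partner with which VDR binds DNA, spread more widely. It was 71.7, 86.6, 42.5 and 124 CPM in RMC-7977 tumours, 29.8, 103, 77.8 and 85.6 CPM in RMC-4550 tumours, and 41.1, 49.2, 87.8 and 5.92 CPM in Trametinib tumours. Cobimetinib tumours had 177, 115, 52.8 and 91.5 CPM. In Vehicle tumours the lowest value was 28.7, the median 107 and the highest 122 CPM. Only Trametinib replicate 4 lay below the lowest Vehicle tumour. The log2 fold change of Trametinib over Vehicle was -1.06 ± 0.51, with an unadjusted p of 0.0491 and an edgeR adjusted p of 0.263, and those of RMC-7977 (-0.25), RMC-4550 (-0.38) and Cobimetinib (0.18) were smaller than or similar to their standard errors.

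The levels of VDR and RXRA moved with the GC content of the library. For each library the rank correlation between transcript GC content and a gene's deviation from its mean over the 22 tumours was taken as its GC coefficient. RXRA ranked at the 88.4th percentile of tested genes for transcript GC content. Across the 22 tumours its log2 CPM had a rank correlation of 0.886 with the GC coefficient, and VDR had 0.863, CYP27B1 0.527, STC1 0.300, CYP24A1 0.231 and PTHLH -0.01, given as a description since the points share libraries with the coefficient. In the 7 libraries with a coefficient below 0, RXRA was 5.92 to 52.8 CPM, and in the other 15 it was 71.7 to 177 CPM. Of these 7, 3 were Trametinib tumours, and each of the other 4 groups held 1. With a correction for GC content the RXRA log2 fold change under Trametinib was -0.72 (edgeR adjusted p = 0.254), and with the 2 libraries short of low counts left out it was -0.72 as well (edgeR adjusted p = 0.633). The part of library GC content in the differences of VDR and RXRA was not tested beyond these values. For CYP24A1 under RMC-7977 the log2 fold change was -2.98 with the correction, and for STC1 -2.89.

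**Figure D3:**
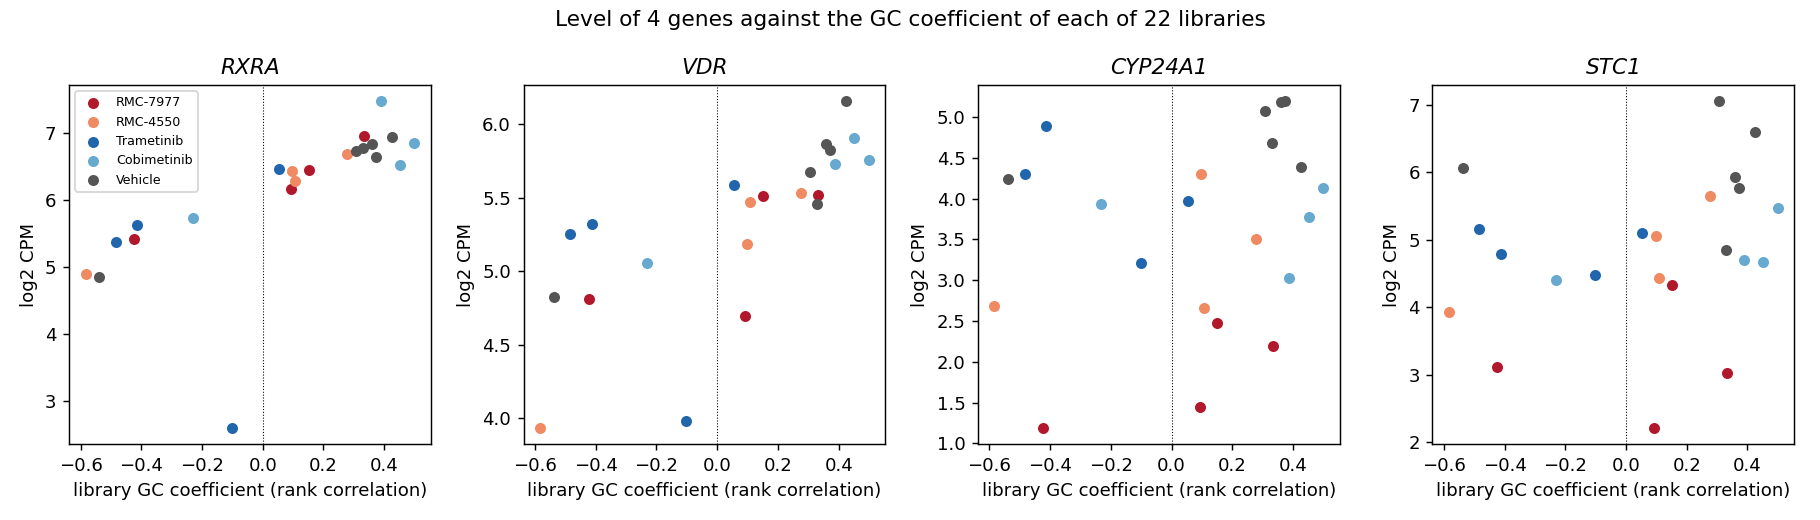
Log2 CPM of RXRA, VDR, CYP24A1 and STC1 in each of the 22 libraries (vertical) against the GC coefficient of the library (horizontal; the dotted line marks 0). RXRA and VDR rise along the horizontal axis across all groups (rank correlations 0.886 and 0.863), while CYP24A1 and STC1 separate mainly by treatment (0.231 and 0.300).

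STC1 (ENSG00000159167, chromosome 8, 23841915 to 23854807, minus strand) was the most abundant member in Vehicle tumours per gene length, as deposited with the counts. It had 4.48, 19.9, 8.50 and 7.95 CPM in RMC-7977 tumours and 15.1, 49.9, 21.6 and 33.1 CPM in RMC-4550 tumours. Trametinib tumours had 35.5, 27.6, 34.1 and 22.2 CPM, and Cobimetinib tumours 25.8, 44.1, 21.1 and 25.5 CPM. In Vehicle tumours the lowest value was 28.7, the median 63.8 and the highest 133 CPM. Every RMC-7977 tumour was below every Vehicle, Trametinib and Cobimetinib tumour, while 3 of 4 Cobimetinib, 2 of 4 Trametinib and 2 of 4 RMC-4550 tumours were below the lowest Vehicle tumour.

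The mean of STC1 was 13.9% of the Vehicle mean under RMC-7977, and 40.7%, 40.6% and 39.6% under RMC-4550, Trametinib and Cobimetinib. Over Vehicle, its log2 fold change under RMC-7977 was -2.85 ± 0.45, a 7.19-fold lower level. Under RMC-4550, Trametinib and Cobimetinib it was -1.30 ± 0.41, -1.30 ± 0.41 and -1.34 ± 0.41, with unadjusted p of 0.00447, 0.00451 and 0.00357 and edgeR adjusted p of 0.744, 0.122 and 1.00, so none passed. Among these 3 drugs the log2 fold changes differed by no more than 0.04, and the interval of Trametinib over Cobimetinib was -0.86 to 0.94. The values over Vehicle share the Vehicle tumours by which STC1 was chosen, so they are descriptions too. Against the other drugs the log2 fold change of STC1 in RMC-7977 tumours was -1.55 over RMC-4550 (interval -2.47 to -0.62), -1.55 over Trametinib (-2.47 to -0.62) and -1.51 over Cobimetinib (-2.43 to -0.58), given as descriptions since the RMC-7977 tumours chose the gene.

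CYP24A1 and STC1 lay together across the 22 tumours, with a Pearson correlation of log2 CPM of 0.839 and a rank correlation of 0.824. After the mean of each treatment was removed the Pearson correlation was 0.424, and both values are descriptions, since the points share libraries and treatments. Between CYP24A1 and VDR it was 0.451, and 0.509 after the means were removed. VDR and RXRA had a correlation of 0.839, and 0.884 after the means were removed, alongside the GC dependence given above.

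**Figure D4:**
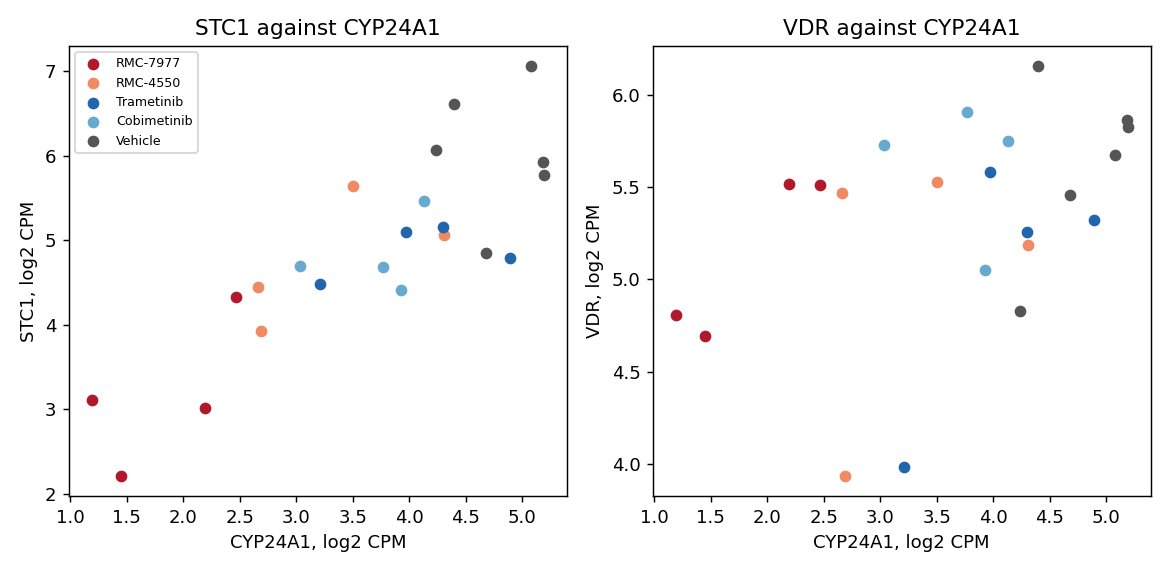
Log2 CPM of STC1 (left) and of VDR (right) against that of CYP24A1, 1 point per tumour, coloured by treatment. RMC-7977 tumours lie at the lower left for STC1 (Pearson correlation 0.839 over 22 tumours). For VDR (0.451) the ranges of RMC-7977 and Vehicle tumours overlap, with 2 of 4 RMC-7977 tumours below the lowest Vehicle tumour.

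STC2 (ENSG00000113739; chromosome 5, 173314713 to 173329503, minus strand), the second stanniocalcin, was barely detected and not tested. It had 0 counts in all 4 RMC-7977 tumours, 3 in all 4 RMC-4550 tumours together, 3 in the Trametinib tumours, 6 in the Cobimetinib tumours and 3 in the 6 Vehicle tumours. A count of 3 in 1 library, the limit that a count of 0 allows, correspond to 0.207 to 0.286 CPM in the RMC-7977 libraries, so a difference from Vehicle (0.0385 CPM on average) was not detectable at this depth. These limits cover counting error only.

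PTHLH (ENSG00000087494; chromosome 12, 27958084 to 27972705, minus strand) was low but present. It had 1.62, 1.66, 0 and 0.968 CPM in RMC-7977 tumours, from 17, 21, 0 and 14 counts. In RMC-4550 tumours it had 3.70, 1.93, 2.36 and 3.52 CPM, in Trametinib tumours 1.73, 1.68, 3.17 and 8.16 CPM, and in Cobimetinib tumours 4.29, 2.94, 2.45 and 1.00 CPM. In Vehicle tumours the lowest value was 2.25, the median 3.60 and the highest 4.75 CPM. All 4 RMC-7977 tumours were below every Vehicle, RMC-4550 and Trametinib tumour, and the highest and the lowest value of all 22 were in the libraries short of low counts.

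The log2 fold change of PTHLH over Vehicle was -1.69 ± 0.61 for RMC-7977, and -1.30 with the 2 libraries short of low counts left out. For RMC-4550 it was -0.27 ± 0.56 (edgeR adjusted p = 0.986), for Trametinib 0.06 ± 0.56 (0.960) and for Cobimetinib -0.37 ± 0.56 (1.00). Without those 2 libraries the Trametinib value was -0.66 (edgeR adjusted p = 0.631). The stretch around the RefSeq start of PTHLH held a palindrome with the core letters CCGGAA of the ETS family, to which the RAS-responsive factors ETV4 and ETV5 belong, on both strands. It is shown with the 8 letters in capitals, from GRCh38.p14 at chr12:27970035-27970064, minus strand, within a first exon of other PTHLH transcripts:
PTHLH: tggaatcaactTTCCGGAAgcaaccagccc
The 2 matches begin 77 and 75 bases before the RefSeq start. CCGGAA was present on either strand in 14.5% of 35116 upstream windows of 250 bases, so a match describes these letters and not a site in use. The PTHLH window held no AP-1 site TGACTCA, vitamin D half-sites AGGTCA or AGTTCA, HIF core ACGTG or ATF4 composite TGATGCAA. Of the 2 RXRA windows searched, 1 also held CCGGAA, 125 bases before its start, and the STC2 window did not. RXRA had a log2 fold change of -0.25 under RMC-7977. A link between these letters and the response to a drug was not tested.

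Per kilobase of the gene length deposited with the counts, the Vehicle levels ordered as STC1 (17.7 CPM per kilobase), VDR (9.07), RXRA (8.70), CYP24A1 (7.20), PTHLH (1.02), CYP27B1 (0.494) and STC2 (0.00629). Under RMC-7977 the levels were 7.32 for RXRA, 6.38 for VDR, 2.46 for STC1, 0.913 for CYP24A1, 0.626 for CYP27B1 and 0.315 for PTHLH. The mean level of the degrading enzyme per length was thus above that of the activating enzyme in both groups, by less under RMC-7977. RMC-7977 replicate 3 had the reverse order (0.535 for CYP24A1 and 0.914 for CYP27B1), and the other RMC-7977 tumours did not. CYP24A1 was chosen as low under RMC-7977 and CYP27B1 rests on few counts, so this is a description.

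The 3 comparisons of RMC-4550, Trametinib and Cobimetinib with Vehicle left out RMC-7977 but used the Vehicle tumours by which CYP24A1 and STC1 were chosen. Values of these 2 members in them are thus descriptions. In these comparisons edgeR called 0 of 6 members for RMC-4550, where 0.0283% of all genes were called. It called 0 of 6 for Trametinib and for Cobimetinib, where 0 of 17652 genes were called. At an unadjusted p under 0.05, 2 members were lower and none higher in each. These were CYP24A1 and STC1 for RMC-4550 (1.42% of all genes lower, 2.82% higher), RXRA and STC1 for Trametinib (7.17% and 11.7%), and CYP24A1 and STC1 for Cobimetinib (2.31% and 0.986%). DESeq2 also called 0 members in each of the 3. With the replicate number as a block RMC-4550 again had 0 members called, and 13 genes in all in place of 5. Between RMC-4550 and Trametinib edgeR and DESeq2 each called 0 of 6 members, and 0 had an unadjusted p under 0.05, where 8.42% of all genes were lower and 3.91% higher at that level. The counts were the same between RMC-4550 and Cobimetinib, where edgeR called 0.0283% of all genes and 1.95% were lower and 4.25% higher at an unadjusted p under 0.05. Between Trametinib and Cobimetinib both tools called 0 members, and 2, CYP27B1 and RXRA, were lower at an unadjusted p under 0.05, where 6.58% of all genes were lower and 10.2% higher.

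Counts of members whose groups did not overlap stood beside the same counts over all genes. All RMC-7977 tumours were below all RMC-4550 tumours in 2 members and in 4.21% of all genes tested. They were below all Trametinib tumours in 3 members and in 2.92% of all genes, and below all Cobimetinib tumours in 2 members and in 4.73% of all genes. All Cobimetinib tumours were below all Vehicle tumours in 1 member, CYP24A1, and in 0.799% of all genes. RMC-4550 and Trametinib tumours lay wholly below Cobimetinib tumours in 1 member each, CYP27B1, and in 3.9% and 4.45% of all genes.

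Genes around these members were examined as lists chosen by function, with earlier results of these data known. The calls and p-values of genes in these lists are therefore descriptions. Of 13 other genes that make, carry or degrade vitamin D, 8 were tested and none passed against Vehicle under any drug (edgeR and DESeq2). At an unadjusted p under 0.05, 2 were higher under RMC-7977 and 3 under Trametinib, where 4.87% and 11.7% of all genes were higher. LRP2, among those under Trametinib, had a log2 fold change of 1.91, and as little as 0.07 with a tumour left out. The median log2 fold changes of the list were 0.07 for RMC-7977, -0.06 for RMC-4550, 0.30 for Trametinib and 0.21 for Cobimetinib, against -0.01 for all genes in each. DHCR7, which diverts the vitamin D precursor to cholesterol, averaged 220 CPM under RMC-7977 and 177 CPM under Vehicle. The electron carrier FDXR, which serves the mitochondrial vitamin D hydroxylases, averaged 46.7 and 51.6 CPM in the same groups. Of 22 RXR partners and VDR cofactors, 18 were tested and none passed in edgeR. At an unadjusted p under 0.05, 1 was lower and 1 higher under RMC-7977, where 5.47% of all genes were lower and 4.87% higher, and DESeq2 called 1 higher. In this list the corepressor NCOR1 had a log2 fold change of 0.16 under RMC-7977.

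Among 20 genes that VDR is known to induce, 13 were tested and 1, TREM1, passed, lower under RMC-7977. TREM1 (ENSG00000124731; chromosome 6, 41267926 to 41286719) encodes a receptor that amplifies inflammatory signals on myeloid cells. It had 4.86, 7.13, 8.84 and 6.92 CPM in RMC-7977 tumours, and in Vehicle tumours the lowest value was 15.5, the median 26.8 and the highest 30.4 CPM. All 4 RMC-7977 tumours were below all Vehicle tumours, and the log2 fold change was -1.84 ± 0.35 with an edgeR adjusted p of 0.0106. Without RMC-7977 replicate 1 the edgeR adjusted p was 0.0656. The median of the 13 genes was -0.12 under RMC-7977, and CYP24A1, the classical target of VDR, is not among them.

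TREM1 also fell under RMC-7977 compared with Trametinib (-1.83, edgeR adjusted p = 0.0313), where Trametinib replicate 4 had 48.5 CPM and the other 3 tumours 14.8 to 20.1 CPM; without that library the edgeR adjusted p was 0.0930, and without any 1 RMC-7977 tumour it was 0.0581 to 0.130. Compared with RMC-4550 (-0.99, edgeR adjusted p = 0.420) and with Cobimetinib (-0.86, 0.517) it did not pass. Over Vehicle the log2 fold change was -0.84 for RMC-4550, -0.01 for Trametinib and -0.97 for Cobimetinib, none past the threshold. Its upstream sequence is shown because it held both vitamin D half-sites, AGTTCA and AGGTCA, in capitals, 194 and 42 bases before the RefSeq start, from GRCh38.p14 at chr6:41286719-41286932, minus strand:
TREM1: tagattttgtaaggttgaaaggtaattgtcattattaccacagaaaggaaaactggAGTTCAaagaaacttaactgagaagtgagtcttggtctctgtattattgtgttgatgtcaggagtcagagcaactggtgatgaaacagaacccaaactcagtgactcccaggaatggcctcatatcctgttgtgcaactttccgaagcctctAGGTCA
The letters AGTTCA occurred in 8.8% and AGGTCA in 12.1% of the 35116 windows, on either strand, and the 2 matches are far apart and not the paired element that VDR and RXRA bind.

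The stanniocalcins inhibit PAPP-A, a protease that frees insulin-like growth factors from their binding proteins. Of 12 genes of this axis 11 were matched, 6 were tested, and 1 passed: PAPPA itself fell under RMC-7977. PAPPA (ENSG00000182752; chromosome 9, 116153804 to 116402322) had 6.96, 7.13, 6.29 and 6.29 CPM in RMC-7977 tumours, and in Vehicle tumours the lowest value was 18.01, the median 31.2 and the highest 42.8 CPM. It averaged 6.67 ± 0.44 and 29.4 ± 9.43 CPM in these groups (SD, n = 4 and 6), with a log2 fold change of -2.14 ± 0.28 and an edgeR adjusted p of 0.000461. The median of the 6 tested genes was -0.38 under RMC-7977.

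PAPPA was also lower under RMC-7977 than under each other drug, and in each case every RMC-7977 tumour was below every tumour of the other group. It was 12.7 to 24.2 CPM under RMC-4550, 8.48 to 24.9 CPM under Trametinib and 24.4 to 25.6 CPM under Cobimetinib. The log2 fold change was -1.61 over RMC-4550 (edgeR adjusted p = 0.0265), -1.51 over Trametinib (0.0313) and -1.90 over Cobimetinib (0.00446). Leaving out any 1 RMC-7977 tumour ended the calls against RMC-4550 and Trametinib (edgeR adjusted p of 0.0608 to 0.153 and 0.0720 to 0.113), and not the call against Cobimetinib. The call against RMC-4550 was also lost without RMC-4550 replicate 2, 3 or 4 or Cobimetinib replicate 4. Over Vehicle, RMC-4550 (-0.53), Trametinib (-0.63, interval -1.18 to -0.08) and Cobimetinib (-0.24) did not pass in the main fit. Under Trametinib PAPPA was called with limma-voom and library weights (adjusted p = 0.000466), where 7874 of all genes were. It was also called by edgeR (adjusted p = 0.0483, 2686 of all genes) without the 2 libraries short of low counts and replicate 1 of RMC-4550 and of Vehicle. STC1 and PAPPA, an inhibitor and the protease it binds, were thus both low in RMC-7977 tumours. Over the 22 tumours the Pearson correlation of PAPPA was 0.827 with STC1 and 0.820 with CYP24A1, and 0.531 and 0.496 once treatment means were removed, as descriptions. The sequence upstream of PAPPA, shown for comparison with TREM1 and PTHLH, held none of the 6 motifs searched (GRCh38.p14, chr9:116153541-116153790, plus strand):
PAPPA: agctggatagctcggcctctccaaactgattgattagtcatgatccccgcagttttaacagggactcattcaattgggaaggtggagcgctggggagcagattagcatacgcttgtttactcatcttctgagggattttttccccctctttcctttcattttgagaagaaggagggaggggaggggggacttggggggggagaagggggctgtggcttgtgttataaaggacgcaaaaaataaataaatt

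**Figure D5:**
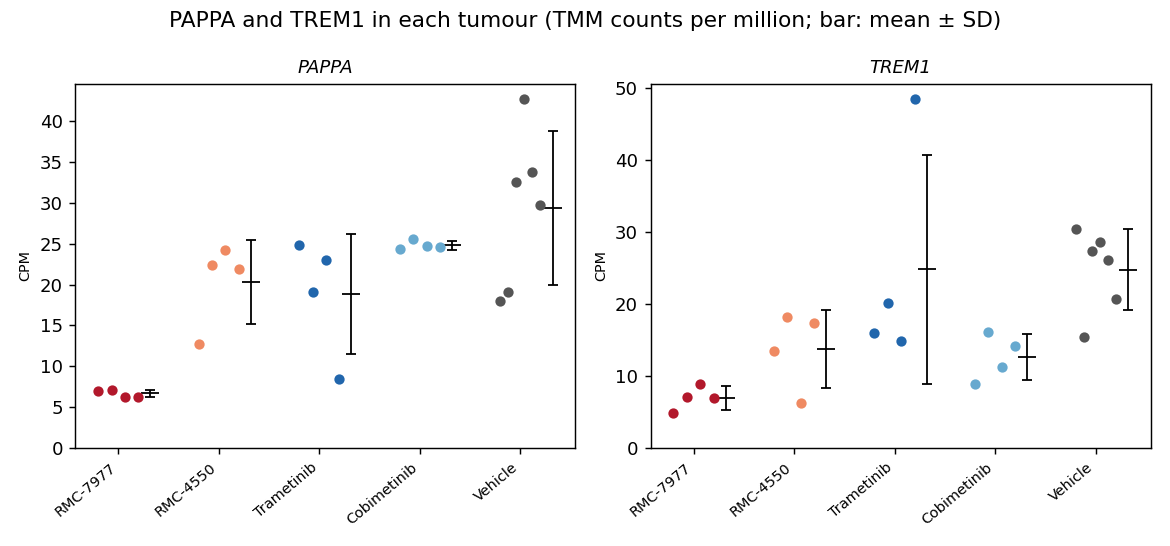
PAPPA (left) and TREM1 (right) in each tumour, in TMM-scaled CPM, with the mean ± SD beside the points (4 tumours per drug, 6 for Vehicle). PAPPA lies between 6.29 and 7.13 CPM in all 4 RMC-7977 tumours and at or above 8.48 CPM in every other tumour, while TREM1 in Trametinib replicate 4 stands out at 48.5 CPM.

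No gene of the remaining lists of mineral hormones and their regulators passed in edgeR in any comparison with Vehicle. At an unadjusted p under 0.05 under RMC-7977, 4 transport genes, 3 PTHLH regulators and 1 hypoxia gene were lower and 1 hypoxia gene was higher, where 5.47% of all genes were lower and 4.87% higher, and DESeq2 called 2 transport genes and 1 hypoxia gene lower. At the same level 5 of 10 genes of the ATF4 list were higher under Cobimetinib, where 0.986% of all genes were, and 3 of 9 hormone and receptor genes under Trametinib, where 11.7% were. Of 18 other calcium and phosphate hormones and receptors 9 were tested, and the calcitonin gene CALCA averaged 37.4 CPM in RMC-7977 tumours, 113 CPM in RMC-4550 tumours, 103 CPM in Trametinib tumours, 29.1 CPM in Cobimetinib tumours and 39.1 CPM in Vehicle tumours, with an edgeR adjusted p of 0.953 for RMC-4550 and 0.201 for Trametinib. The Trametinib mean rested on replicate 4, with 317 CPM against 24.5 to 42.1 CPM in the other 3 tumours, and without it the log2 fold change was -0.32 in place of 1.39. In RMC-4550 replicate 3 CALCA was 237 CPM, and without it the log2 fold change was 0.86 in place of 1.53. Of 18 calcium and phosphate carriers, pumps and channels 13 were tested, with medians between -0.22 and 0.02. The most abundant were the calcium pump ATP2B4, with a log2 fold change of -0.18 under RMC-7977, and the exporter ANKH, with -0.05. Among 10 hypoxia-responsive genes, the setting in which stanniocalcins are often induced, the medians were -0.14 for RMC-7977, -0.18 for RMC-4550, -0.07 for Trametinib and -0.42 for Cobimetinib. The 10 genes of a list of ATF4 and its targets had medians of 0.23, 0.18, 0.01 and 0.40, and the 11 tested regulators of PTHLH in the TGF-beta and GLI pathways had -0.28, -0.33, -0.05 and -0.30. In the first of these lists SLC2A1 and NDRG1 were the most abundant genes, in the next ATF4 and PSAT1, and in the last TGFBR1 and SMAD2, and these 6 had log2 fold changes of -0.64 to 0.10 under RMC-7977.

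ERK-responsive genes give the setting of these values. Of 9 tested, 6 were called lower under RMC-7977, 1 under RMC-4550 (DUSP6) and none under Trametinib or Cobimetinib, with medians of -2.71, -1.10, -1.43 and -0.34. DUSP6, the phosphatase that switches ERK off, averaged 1.42 ± 0.31 CPM with RMC-7977, 1.60 ± 0.70 with RMC-4550, 2.55 ± 1.79 with Trametinib, 5.81 ± 1.33 with Cobimetinib and 18.5 ± 6.59 with Vehicle (SD, n = 4 per drug and 6 for Vehicle), and every treated tumour was below every Vehicle tumour. ETV4 and ETV5, transcription factors that RAS signalling induces, had log2 fold changes of -4.49 and -2.71 under RMC-7977, and PHLDA1, another gene induced by ERK, had -2.83. ETV4 averaged 0.80 ± 0.36 CPM under RMC-7977 and 18.5 ± 8.51 CPM under Vehicle. At an unadjusted p under 0.05 the lower genes were 7, 7, 8 and 3 of the 9 in the same order of drugs, and DESeq2 called 7, 4, 6 and 0. Of all genes 5.47%, 1.42%, 7.17% and 2.31% were lower at that unadjusted level. The call of DUSP6 under RMC-4550 (-3.52, edgeR adjusted p = 0.0191) was lost without RMC-4550 replicate 1 or 3 or Vehicle replicate 5, and without Vehicle replicate 1 the count under Trametinib was 6.

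Some markers of other cell types were lower under RMC-7977 as well. The summed level of 6 endothelial markers, most of it PECAM1, was 9.15 to 21.3 CPM in RMC-7977 tumours and 21.1 to 51.0 CPM in Vehicle tumours; PECAM1 was 1 of 4 tested that passed (-1.71, edgeR adjusted p = 0.0235), and VWF had a log2 fold change of 0.77. Leaving out RMC-7977 replicate 1, 2 or 4 or Vehicle replicate 5 or 7 ended the call of PECAM1 (edgeR adjusted p of 0.0533 to 0.121). The endothelial markers KDR and EMCN had too few counts to test, with 19 and 176 over all libraries. The sum of 7 myeloid markers was 6.96 to 10.6 CPM under RMC-7977 and 11.8 to 27.0 CPM under Vehicle. LAPTM5 was 1 of 4 tested that passed (-3.75, edgeR adjusted p = 0.00591). PTPRC, CD68 and LYZ had too few counts to test, with 81, 7 and 5 counts over all 22 libraries. CD14, which is also in the list of genes that VDR induces, had the most counts of the 7, 2773, and LAPTM5 had 876. Sums of 9 lung epithelial markers (3940 to 5983 CPM under RMC-7977 and 4569 to 5668 CPM under Vehicle) and of 6 fibroblast markers (91.4 to 213 and 21.1 to 305 CPM) overlapped between the groups. The fibroblast sum was nearly all COL1A1, with 48218 counts over all libraries, since the other 5 markers had 42 to 98 counts each. No squamous, fibroblast, bone or kidney marker passed in edgeR or DESeq2 under any drug. At an unadjusted p under 0.05, 1 squamous and 1 bone marker were lower under RMC-7977, where 5.47% of all genes were. The part of other cell types in the levels of TREM1, PAPPA, CYP24A1 and STC1 was not tested.

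The genes most like each member over the 22 tumours were taken from 11039 protein-coding genes by the Pearson correlation of log2 CPM, as a description. For CYP24A1 they were ADAM28 (0.855), ETV4 (0.851) and HMGB3 (0.828), and for STC1 they were THBS1 (0.862), PTGS1 (0.845) and ANTXR2 (0.843). For PTHLH they were ADSL (0.813), FAM207A (0.802) and FNTB (0.770). For VDR they were ACTN1 (0.949), TTLL12 (0.947) and PTMS (0.935), for RXRA KHSRP (0.983), RABL6 (0.983) and MOV10 (0.982), and for CYP27B1 CCDC142 (0.917), TMEM222 (0.908) and INPP4A (0.904). After treatment means were removed, the values with these genes were 0.878 to 0.983 for VDR, RXRA and CYP27B1, 0.539 to 0.763 for CYP24A1, 0.462 to 0.716 for STC1 and 0.747 to 0.827 for PTHLH.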

How the data were processed

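Total RNA of 22 xenograft tumours was sequenced from strand-specific libraries, per the labels' protocols. The authors deposited 1 table of whole-number read counts per gene; the submitters' processing notes list, without roles, the build hg38 and the tools featureCounts 1.5.0-p3, HISAT2 2.0.5, edgeR 3.22.5, DESeq2 1.20.0 and fastp. Not given in the sources used here: the annotation, the strand setting and any removal of host sequence. Columns were matched to tumours by name. The members and all gene lists were chosen with earlier results of these data known.

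The counts were fitted with edgeR 4.0.16 (quasi-likelihood test, robust, TMM scaling, R 4.3.3) over all 22 tumours and 5 groups, with 10 comparisons and Benjamini-Hochberg adjustment over the 17652 genes that passed edgeR's filter (minimum count 10), which kept 99.7% of counts. The threshold was an adjusted p of 0.05. The biological coefficient of variation was 0.368, and totals of 7761987 to 17265754 counts make values of a few counts imprecise. Log2 CPM used a prior count of 2. The procedure was run on simulated counts with the same spread for all genes and no GC or low-count differences between libraries. That run does not cover the library differences described above. Libraries were distinct: the highest correlation between any pair was 0.984 and 0 pairs were identical. Alternatives were DESeq2 1.42.0, limma 3.58.1 (voom with library weights), RLE scaling, other filters, fewer groups or libraries, a replicate block, leaving out each tumour, and, added after seeing the data, a GC correction in 20 bins.

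Besides the members, the text names up to 4 genes per list that passed against Vehicle, or else from its 2 most abundant genes, and the 3 protein-coding genes most like each member. The check of replicate numbers used the correlation of same-numbered tumours' deviations from their group means. With the 3 numbers shared with Vehicle, it was above 0.1 in every pair for RMC-4550 (0.711, 0.170 and 0.171) and Trametinib (0.136, 0.190 and 0.202). It was not for RMC-7977 or Cobimetinib. The main fit paired no comparison, and the replicate block was an alternative setting only. Upstream sequences came from RefSeq on GRCh38.p14, where RXRA, STC2, PTHLH, PAPPA and TREM1 matched; motifs were searched on both strands of the 250 bases before the start.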

Additional observations from a re-analysis of the deposited data

Results flagged for a closer look

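Of 30 groups of values examined, 6 members in 5 treatments, 1 was marked because a tumour lay far from the rest of its group. RXRA in Vehicle replicate 1 was 28.7 CPM, where the nearest of the other 5 Vehicle tumours had 99.8 CPM, a gap that covered 0.762 of the whole range. Chance marks about 1 in 20 such groups. The GC coefficient of that library was -0.54, against 0.307 to 0.426 in the other 5 Vehicle libraries, and its part in the RXRA value was not tested.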

How the results depend on the processing

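The lower CYP24A1 and STC1 levels of RMC-7977 tumours against Vehicle kept their direction in all 10 other settings and in all 22 fits that left out 1 tumour, with log2 fold changes of -3.00 to -2.79 and -2.89 to -2.67 in the settings and -3.24 to -2.78 and -3.41 to -2.59 without 1 tumour. With a replicate block, which could use only the 3 numbers shared with Vehicle and where same-numbered RMC-7977 and Vehicle tumours did not deviate together (-0.23, 0.03 and -0.16), 0 members were called in place of 2, and PAPPA (-1.73) and TREM1 (-1.79) were not called. The block also gave 0 members for RMC-7977 against Trametinib and 3 against Cobimetinib, in place of 1 each, where it called 0 and 1623 of all genes in place of 72 and 49, and changed no other count of members. With limma-voom and library weights 4 members were called for RMC-7977 against Vehicle, 1 for RMC-4550, 4 for Trametinib and 1 for Cobimetinib against Vehicle, 2 for RMC-7977 against RMC-4550, 3 against Trametinib and 2 against Cobimetinib, 2 for RMC-4550 against Trametinib and 3 for Trametinib against Cobimetinib. In the same order voom called 2943, 113, 7874, 401, 937, 5291, 1535, 3733 and 6600 of all genes. In that setting PTHLH under Trametinib against Vehicle turned to -0.92 (adjusted p = 0.0345), against 0.06; the cause was not tested. DESeq2 called 2 members for RMC-7977 against each of RMC-4550, Trametinib and Cobimetinib. A fit of only the 2 groups gave 0 for RMC-7977 against Trametinib, and no filter gave 0 against Cobimetinib. Without single tumours both counts ranged over 0 to 1, and no other count of members changed. Sign changes of values called in neither setting were not counted as reversals.

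The calls over all genes moved more. For RMC-7977 against Vehicle they were 132, and 599 with DESeq2, 80 with no filter, 0 with a replicate block, 369 and 1134 with 2 and 4 libraries left out, 294 with the GC correction, and 43 to 541 without 1 tumour. For Trametinib against Vehicle they were 0, and 393 with DESeq2, 301 with a minimum mean CPM of 1 and 0 to 1428 without 1 tumour. For RMC-4550 against Vehicle they were 5, with DESeq2 34, and for Cobimetinib 0, with DESeq2 1. Between drugs RMC-7977 had 16 calls against RMC-4550, 72 against Trametinib and 49 against Cobimetinib, and 236, 859 and 323 with DESeq2. STC2, with 0 to 5 counts per tumour, could not be tested at this depth.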
